A study of Mus musculus with 16 samples.

Results

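The oligodendrocyte lineage was followed through 36 genes in cultures of mouse neural stem cells (NSC) with and without depletion of the long noncoding RNA *RUS*. The members were the rows of the expression tables whose gene symbol is on a list of 13 precursor genes, 6 genes of committed cells and 17 myelin genes. They are 36 of 55468 named rows. NSC came from the cortices of C57BL/6 embryos at embryonic day 15 to 16, pooled from embryos of both sexes, and were grown as monolayers with serum, B27 and bFGF. One day after seeding, the cells received a lentivirus with either a scrambled shRNA (shRNA CON) or 1 shRNA against *RUS* (shRNA RUS), and neurobasal medium with B27 was used for differentiation from day 5. RNA-seq was done on day 5 and on day 7, on 16 libraries with 4 in each group. All 4 groups thus carried a lentivirus, the effect of shRNA RUS rests on a single shRNA, and the cells are a mixed primary culture and not sorted oligodendrocytes. Whether the 4 replicates of a group were separate cell preparations is not given in the labels, so that the p-values measure the spread between these libraries.

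Oligodendrocytes form the myelin of the central nervous system. They arise from precursor cells that carry the receptor for platelet-derived growth factor and the transcription factors Olig1, Olig2 and Sox10. When precursors leave the cell cycle they pass through a committed stage, marked by Gpr17, Bcas1 and Enpp6 and driven by the transcription factor Myrf, before they make the proteins and lipids of myelin. Cortical NSC can give rise to neurons, astrocytes and oligodendrocytes. Some members are not restricted to this lineage: *Ptprz1*, *Vcan* and *Olig2* are known from radial glia or neural progenitors, *Nfasc* and *Omg* from neurons, and several myelin genes from Schwann cells.

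Levels are given as TPM (transcript abundance corrected for length and scaled to the same sum in each library) as the authors deposited them, and group values as mean ± SD of 4 libraries. Log2 fold changes with their SE come from limma on log2(TPM + 0.1) after scaling between libraries, and a gene was called where its p, adjusted over all genes tested (Benjamini-Hochberg), was under 0.05. How many reads a library had is unknown. A library listed 25615 to 29126 genes above 0 TPM. Among the libraries of shRNA RUS on day 5, replicate 4 was the highest for 47.0% of all genes tested, and among those of shRNA CON on day 5, replicate 1 was the highest for 46.3%; their part in the results of day 5 is given below. *RUS* itself, listed as *Gm20754*, was close to the detection limit. It had 0.24, 0.11, 0.18 and 0.16 TPM with shRNA CON and 0.05, 0, 0.12 and 0.32 TPM with shRNA RUS on day 5. The values of day 7 were 0.70, 0.72, 0.26 and 0.54 TPM against 0.54, 0.38, 0 and 0.04 TPM. Its groups overlapped on both days and its fold change was not called (adjusted p = 0.519 and 0.114). By RT-qPCR, a separate measurement, the paper reported reduced *RUS* with shRNA RUS and described the depletion as incomplete.

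The lineage was present in the control cultures, at levels that differed strongly between stages. TPM are comparable between genes as levels per length. Summed over the 13 precursor genes, the control libraries held 619 to 688 TPM on day 5 and 831 to 903 TPM on day 7. *Ptprz1* and *Olig1* made up most of this sum, with 259 ± 19.6 and 161 ± 26.7 TPM on day 5, while *Sox10* and *Nkx2-2* had means of 2.89 and 2.32 TPM. The 6 committed genes summed to 3.99 to 7.11 TPM on day 5 and to 38.7 to 58.5 TPM on day 7. The 17 myelin genes summed to 164 to 182 TPM and 174 to 210 TPM, of which *Cnp* (2′,3′-cyclic nucleotide phosphodiesterase) made up most, with a mean of 128 ± 5.34 TPM on day 5 and 120 ± 5.35 TPM on day 7. Some myelin genes were near 0. *Opalin* did not exceed 0.23 TPM and the connexin gene *Gjb1* did not exceed 0.11 TPM in any of the 16 libraries. Both stayed under the minimum mean of 0.1 TPM and were not tested, so that 34 of the 36 members were tested. On day 5, *Gpr17*, *Zfp488*, *Mobp* and *Gjc3* passed this minimum only through the shRNA CON group.

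With shRNA RUS, more members were called lower than higher on both days. On day 5, 11 of the 34 members tested were called lower, where 17.9% of all genes tested were, and 2 were called higher, where 14.8% of all genes were. Among the 30 members that reached the minimum in both groups, 10 were called lower and 2 higher, with a median log2 fold change of −0.45, beside −0.06 for all genes. Of the 34, without replicate 4 of shRNA RUS, 13 members were called lower and 3 higher, and without replicate 1 of shRNA CON, 9 lower and 2 higher. With TPM as deposited, 17 members were called lower, but the median of all genes was then −0.205. On day 7, 26 members were called lower and 2 higher, beside 25.8% and 23.4% of all genes. The median of the members was then −0.96 and that of all genes −0.03. In RNA from whole cultures, fewer cells of a type and less RNA per cell cannot be told apart.

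By stage, and over the members that reached the minimum in both groups, 7 of 13 precursor genes and 3 of 13 myelin genes were called lower on day 5, beside 17.9% of all genes, and 2 of the 13 myelin genes were called higher. The medians were −0.62 for precursor and −0.29 for myelin genes. The 4 committed genes in question, *Bcas1*, *Enpp6*, *Myrf* and *Nkx6-2*, were not called (median −0.32). On day 7, 11 of 13 precursor genes, 6 of 6 committed genes and 9 of 15 myelin genes were called lower, beside 25.8% of all genes, and 2 myelin genes were called higher. The medians were −0.60 for precursor, −2.25 for committed and −1.17 for myelin genes, on the scale of log2 fold changes. These stage values are descriptions, and no test was made between the stages.

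**Figure D1:**
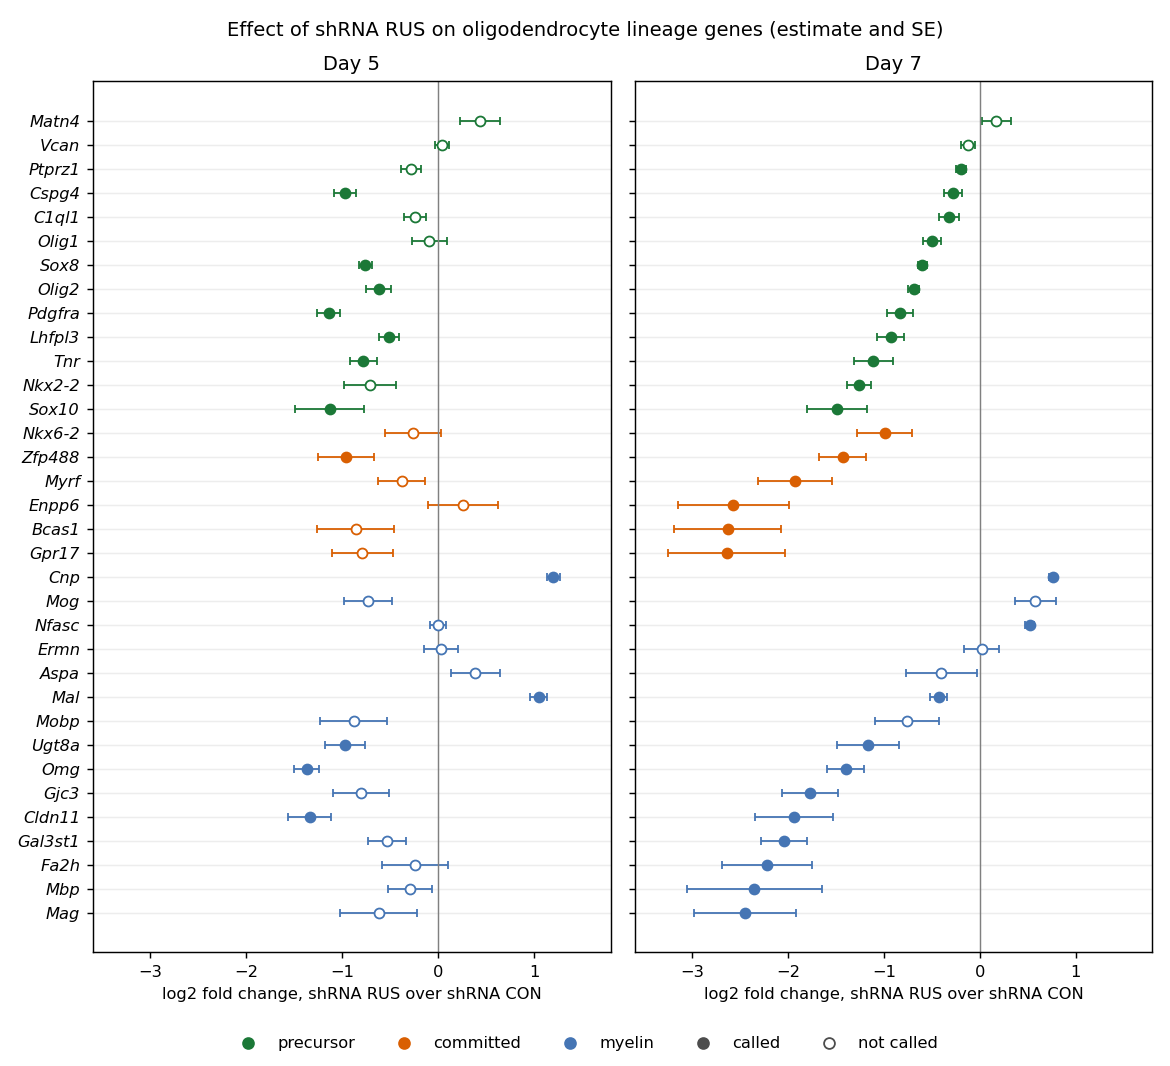
Log2 fold change of shRNA RUS over shRNA CON (x axis) for each of the 34 members tested (y axis), with day 5 in the left panel and day 7 in the right, with SE bars and colours for the stages. Filled points were called. All 6 committed genes lie left of 0 on day 7, from −0.99 to −2.64, while *Cnp* lies right of 0 on both days.

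*Olig2*, which specifies the lineage together with *Olig1* (chromosome 16, GRCm38, from 91225457 to 91228677, plus strand), was lower with shRNA RUS on both days. On day 5 it had 59.2, 54.3, 54.3 and 71.1 TPM with shRNA CON and 36.6, 36.7, 37.3 and 28.6 TPM with shRNA RUS. On day 7 the values were 83.7, 88.4, 91.0 and 78.7 TPM against 51.0, 52.0, 51.1 and 58.5 TPM. The groups did not overlap on either day. The log2 fold change was −0.62 ± 0.131 (adjusted p = 0.00599) on day 5 and −0.69 ± 0.0557 (adjusted p = 7.79e-06) on day 7, and the difference between the days was not called. *Olig1* was not called on day 5 (−0.09) and fell by 0.50 on the log2 scale on day 7.

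*Pdgfra*, the receptor for platelet-derived growth factor (chromosome 5, from 75152292 to 75198215, plus strand), was lower in every library with shRNA RUS. Its values on day 5 were 24.6, 19.2, 19.0 and 22.0 TPM with shRNA CON and 10.4, 7.32, 7.48 and 9.29 TPM with shRNA RUS. On day 7 they were 51.2, 55.1, 52.3 and 58.0 TPM and 39.03, 30.0, 22.8 and 32.2 TPM. The log2 fold changes were −1.14 ± 0.122 (adjusted p = 0.000163) and −0.83 ± 0.138 (adjusted p = 0.000789). *Pdgfra* nevertheless rose between the days under both shRNAs, by 1.20 with shRNA CON and by 1.50 with shRNA RUS on the log2 scale.

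*Sox10*, the transcription factor that precursors keep through myelination (chromosome 15, from 79154908 to 79165240, minus strand), showed a wider spread. On day 5 the libraries had 3.92, 2.25, 1.78 and 3.61 TPM with shRNA CON and 1.71, 1.14, 1.26 and 0.52 TPM with shRNA RUS. On day 7 they had 8.95, 9.63, 7.70 and 8.75 TPM and 5.38, 2.70, 1.56 and 3.78 TPM. In TPM as deposited, the groups were apart on both days, narrowly so on day 5. After division by the library factors used in the test, they overlapped on day 5. Replicate 1 of shRNA RUS (factor 0.9201) then lay above replicate 3 of shRNA CON (factor 1.053). The fold changes were −1.13 ± 0.363 (adjusted p = 0.0397) and −1.49 ± 0.309 (adjusted p = 0.0029). The call of day 5 was lost without replicate 1, 2 or 4 of shRNA CON and without replicate 2 or 3 of shRNA RUS (adjusted p = 0.101, 0.0608, 0.0949, 0.0724 and 0.0629). It was also lost with no filter on low values, quantile normalization, eBayes without a trend and the replicate block (adjusted p = 0.0722, 0.0782, 0.0655 and 0.0666), and thus in 9 of 17 alternatives. Its relative *Sox8* was lower on both days, by −0.76 and −0.60.

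The homeodomain factor *Nkx2-2* had 2.01, 1.86, 2.32 and 3.08 TPM with shRNA CON and 1.44, 1.67, 1.21 and 0.72 TPM with shRNA RUS on day 5, which was not called (−0.71, adjusted p = 0.0739). Day 7 gave 4.83, 5.36, 5.81 and 4.14 TPM and 2.11, 1.88, 1.79 and 2.38 TPM, a log2 fold change of −1.26 ± 0.128 (adjusted p = 3.16e-05). *Tnr*, the matrix protein tenascin-R, had 14, 11.3, 12.1 and 10.3 TPM and 5.19, 5.53, 5.60 and 8.80 TPM on day 5. By day 7 there were 19.8, 20.6, 17.1 and 23.7 TPM and 13.3, 8.75, 6.29 and 10.1 TPM. In both genes each shRNA RUS library lay below every control library of the same day. The fold changes of *Tnr* were −0.78 ± 0.14 (adjusted p = 0.00257) and −1.11 ± 0.203 (adjusted p = 0.00137).

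*Cspg4*, the NG2 proteoglycan of precursors, behaved differently, since its difference shrank with time. It had 5.85, 4.76, 4.48 and 4.50 TPM with shRNA CON and 1.83, 2.20, 2.12 and 2.64 TPM with shRNA RUS on day 5. On day 7 the values were 4.83, 4.35, 4.67 and 4.24 TPM and 3.34, 3.79, 3.58 and 4.23 TPM, so that the groups nearly touched. The log2 fold change was −0.97 ± 0.114 (adjusted p = 0.000271) on day 5 and −0.28 ± 0.0913 (adjusted p = 0.0316) on day 7. The call of day 7 was lost without replicate 1 or 3 of shRNA CON and without replicate 1, 2 or 3 of shRNA RUS (adjusted p = 0.0846, 0.0732, 0.0784, 0.0565 and 0.0754), and also with quantile normalization and the replicate block (adjusted p = 0.0932 and 0.0916). The difference between the days was called (0.69 ± 0.142, adjusted p = 0.00205).

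Among the other precursor genes, *Lhfpl3* was lower on both days (−0.51 and −0.93). *C1ql1*, which encodes a secreted protein related to complement C1q, and the receptor phosphatase gene *Ptprz1* were called lower on day 7 (−0.32 and −0.20) and not on day 5. *Ptprz1* was the most abundant member in the controls of both days, at 318 ± 16.8 TPM on day 7. The matrix genes *Vcan* and *Matn4* were not called on either day (0.04 and −0.12, and 0.44 and 0.17).

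The committed genes were all called lower on day 7, and *Gpr17*, *Bcas1* and *Enpp6* had the largest differences of the members tested. *Gpr17*, a G protein-coupled receptor that is transiently present in committed precursors, had 0.37, 0.10, 0.19 and 0.24 TPM with shRNA CON and 0.06, 0.10, 0.04 and 0.08 TPM with shRNA RUS on day 5. On day 7 it had 12.6, 13.1, 10.04 and 13.9 TPM and 5.85, 1.86, 0.41 and 2.56 TPM. The groups met on day 5, where no call was made (−0.79, adjusted p = 0.0887), and were separate on day 7. The log2 fold change of day 7 was −2.64 ± 0.608 (adjusted p = 0.0053). In the annotation, 188 of its 5195 exon bases are shared with exons of *Lims2* on the opposite strand. Whether the counting used the strand is not stated, and without it reads from such shared bases cannot be told apart.

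*Bcas1*, a marker of cells that begin to form myelin (chromosome 2, from 170346991 to 170427845, minus strand), had 1.83, 1.07, 1.33 and 2.09 TPM with shRNA CON and 0.46, 0.57, 1.86 and 0.50 TPM with shRNA RUS on day 5. On day 7 the values were 22.2, 27.8, 16.9 and 29.1 TPM and 11.3, 2.66, 1.20 and 5.04 TPM. Replicate 3 of shRNA RUS lay within the control range on day 5, while the groups of day 7 did not overlap. The fold change was not called on day 5 (−0.86, adjusted p = 0.133), and was −1.28 without that library (adjusted p = 0.00507). It was −2.63 ± 0.561 on day 7 (adjusted p = 0.0034). Of the 3775 exon bases of *Bcas1*, 440 are shared with the antisense gene *Bcas1os1* and 34 with *Bcas1os2*.

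*Enpp6*, a choline-specific phosphodiesterase of newly formed oligodendrocytes (chromosome 8, from 46986887 to 47096762, plus strand), gave the largest difference between the days. It had 0.13, 0.14, 0.22 and 0.32 TPM with shRNA CON and 0.18, 0.50, 0.15 and 0.17 TPM with shRNA RUS on day 5. The values of day 7 were 4.98, 5.96, 3.58 and 7.38 TPM and 2.99, 0.45, 0.27 and 0.99 TPM. The overlapping groups of day 5 were thus separate on day 7. The log2 fold change was 0.26 ± 0.364 (adjusted p = 0.627) on day 5 and −2.57 ± 0.579 (adjusted p = 0.00468) on day 7.

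*Myrf*, the membrane-bound transcription factor that switches on myelin genes (chromosome 19, from 10208272 to 10240748, minus strand), had 0.49, 0.38, 0.36 and 0.48 TPM with shRNA CON and 0.37, 0.34, 0.20 and 0.20 TPM with shRNA RUS on day 5. Day 7 gave 3.24, 2.62, 2.49 and 2.86 TPM and 1.71, 0.44, 0.35 and 0.66 TPM. The log2 fold change of day 7 was −1.93 ± 0.384 (adjusted p = 0.00228). *Zfp488*, a zinc finger co-regulator of Olig2, had 0.36, 0.18, 0.15 and 0.26 TPM and 0.08, 0.04, 0.05 and 0.07 TPM on day 5. By day 7 there were 2.47, 2.99, 2.33 and 3.07 TPM and 1.52, 0.74, 0.63 and 1.07 TPM. Its log2 fold change was −1.43 ± 0.244 on day 7 (adjusted p = 0.00089). On day 5 it was −0.96 ± 0.289 (adjusted p = 0.031), but *Zfp488* was tested on that day only because the control group lifted its mean over the minimum, so that nothing is read from this call. It was lost without replicate 1, 2 or 4 of shRNA CON and without replicate 2 or 3 of shRNA RUS (adjusted p = 0.0934, 0.0513, 0.0793, 0.0721 and 0.0675), and also with quantile normalization and the replicate block (adjusted p = 0.0952 and 0.0699). *Nkx6-2*, which shares 246 of its 1907 exon bases with *Inpp5a* on the opposite strand, was called lower on day 7 (−0.99) and not on day 5 (−0.26), when the controls had 2.64 TPM on average.

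**Figure D2:**
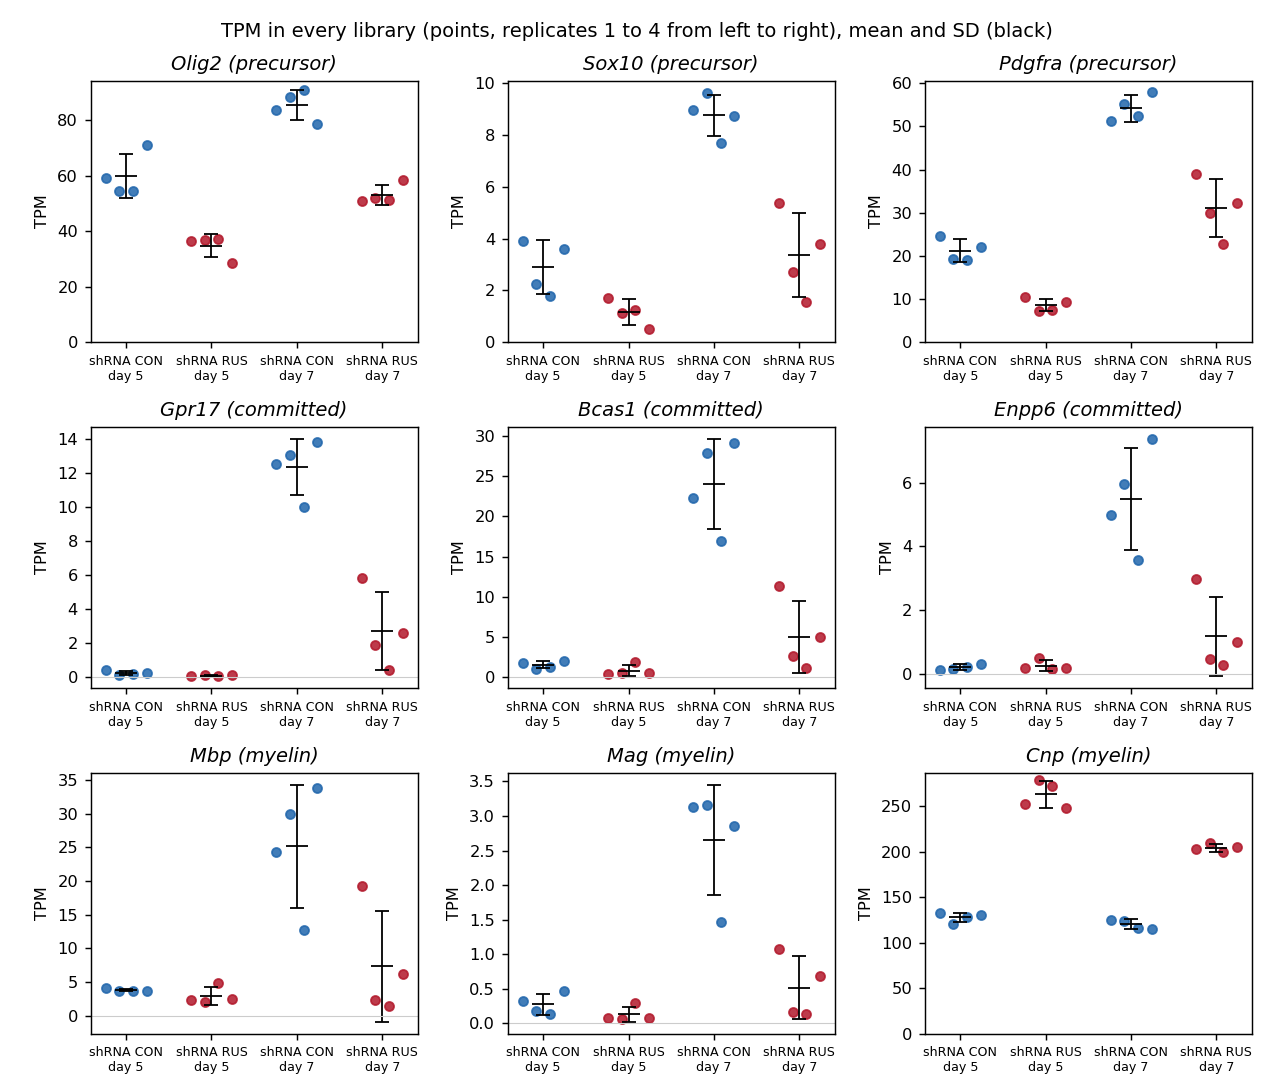
TPM (y axis) in every library of the 4 groups (x axis) for 3 genes of each stage, with points in the order of the replicates 1 to 4 and the mean and SD of 4 libraries in black. *Gpr17*, *Bcas1* and *Enpp6* are near 0 on day 5 and rise on day 7, less far with shRNA RUS, where replicate 1 is the highest. *Cnp* is higher with shRNA RUS on both days.

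Among the myelin genes, structural proteins and lipid enzymes were lower on day 7. *Mbp*, the basic protein that compacts the sheath, had 4.05, 3.74, 3.71 and 3.73 TPM with shRNA CON and 2.38, 2.02, 4.83 and 2.49 TPM with shRNA RUS on day 5. On day 7 the values were 24.2, 29.9, 12.8 and 33.7 TPM and 19.3, 2.33, 1.47 and 6.24 TPM. On day 5, replicate 3 of shRNA RUS lay above every control library and the other 3 lay below, and on day 7, replicate 1 of shRNA RUS lay within the control range. The fold change was not called on day 5 (−0.29, adjusted p = 0.369), and was −0.56 without replicate 3 of shRNA RUS (adjusted p = 0.00505). On day 7 it was −2.35 ± 0.702 (adjusted p = 0.0196). The call of day 7 was lost without replicate 4 of shRNA CON (−2.18, adjusted p = 0.0505) or replicate 2 of shRNA RUS (−2.04, adjusted p = 0.055), and the value was −3.04 without replicate 1 of shRNA RUS.

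*Mag*, an adhesion protein of the inner face of the sheath (chromosome 7, from 30899176 to 30914873, minus strand), had 0.33, 0.18, 0.13 and 0.47 TPM with shRNA CON and 0.08, 0.07, 0.29 and 0.08 TPM with shRNA RUS on day 5. On day 7 it had 3.13, 3.16, 1.47 and 2.86 TPM and 1.08, 0.16, 0.13 and 0.69 TPM. The groups overlapped on day 5 and not on day 7. The log2 fold change of day 7 was −2.45 ± 0.531 (adjusted p = 0.00378). *Cldn11*, the claudin of myelin tight junctions, had 4.63, 3.20, 3.23 and 3.77 TPM and 1.60, 0.91, 1.70 and 0.94 TPM on day 5. The values of day 7 were 7.04, 8.27, 6.10 and 9.51 TPM and 4.38, 1.26, 0.94 and 2.54 TPM. It was called lower on both days, with −1.34 ± 0.227 (adjusted p = 0.00193) and −1.94 ± 0.408 (adjusted p = 0.00318).

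*Omg*, the oligodendrocyte myelin glycoprotein, had 5.56, 5.49, 5.22 and 4.71 TPM with shRNA CON and 1.64, 1.76, 1.42 and 2.31 TPM with shRNA RUS on day 5. Day 7 gave 6.61, 6.91, 5.04 and 7.53 TPM and 3.17, 2.16, 1.73 and 2.74 TPM. No library overlapped. The log2 fold changes were −1.37 ± 0.129 (adjusted p = 8.88e-05) and −1.40 ± 0.193 (adjusted p = 0.000237). *Omg* lies within *Nf1* on the opposite strand, and their annotated exons share no base.

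The enzymes of the myelin glycolipids act in sequence: Fa2h hydroxylates the fatty acid, Ugt8a adds the galactose of galactocerebroside, and Gal3st1 adds the sulfate of sulfatide. *Gal3st1* had 2.76, 3.03, 3.18 and 3.67 TPM with shRNA CON and 2.13, 2.35, 2.00 and 1.35 TPM with shRNA RUS on day 5. By day 7 there were 4.25, 3.50, 2.69 and 3.47 TPM and 1.25, 0.62, 0.56 and 0.75 TPM. In TPM as deposited, the groups did not overlap on either day. After scaling, replicate 2 of shRNA RUS (factor 0.9251) lay above replicate 1 of shRNA CON (factor 1.113) on day 5. The log2 fold change was −0.53 (adjusted p = 0.066) on day 5 and −2.04 ± 0.238 (adjusted p = 8e-05) on day 7. *Fa2h* was at most 0.31 TPM on day 5, and had 0.72 to 1.17 TPM against 0 to 0.47 TPM on day 7 (−2.22 ± 0.47, adjusted p = 0.00328). *Ugt8a* was lower on both days (−0.97 and −1.17), as was the connexin gene *Gjc3* on day 7 (−1.77).

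Members that went the other way were chosen here after their values were seen. *Cnp* (chromosome 11, from 100574904 to 100591729, plus strand) had 133, 120, 128 and 131 TPM with shRNA CON and 253, 279, 273 and 248 TPM with shRNA RUS on day 5. On day 7 it had 125, 124, 116 and 116 TPM and 204, 209, 199 and 205 TPM. The log2 fold changes were 1.20 ± 0.0667 (adjusted p = 1.24e-05) and 0.76 ± 0.039 (adjusted p = 5.54e-07), with the smallest SE of the myelin genes tested. Of its 3639 exon bases, 154 are shared with *Dnajc7* on the opposite strand.

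*Mal*, a proteolipid of membrane rafts that myelin shares with epithelia, changed direction. It had 6.17, 7.22, 6.49 and 6.20 TPM with shRNA CON and 12.6, 11.1, 11.7 and 13.6 TPM with shRNA RUS on day 5 (1.05 ± 0.0883, adjusted p = 5.4e-05). The values of day 7 were 6.42, 7.21, 6.67 and 6.91 TPM and 5.01, 5.78, 5.05 and 4.37 TPM (−0.43 ± 0.0915, adjusted p = 0.00339). The groups were apart on both days, with shRNA RUS on the high side first and on the low side later. *Nfasc*, the neurofascin of axon initial segments and paranodes, was not called on day 5 (0.00). Day 7 gave 16.8, 17.8, 17.2 and 18.1 TPM and 23.8, 24.4, 26.1 and 26.1 TPM (0.52 ± 0.0468, adjusted p = 1.51e-05).

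The myelin genes *Mog*, *Mobp*, *Ermn* and *Aspa* were not called on either day. *Mog* illustrates the limit of TPM for rare transcripts. It had 0.10 to 0.87 TPM over all libraries, but the mean of normalized counts deposited by the authors was 0.364 on day 5 and 1.34 on day 7. Its TPM thus rest on hardly any reads. Over all 36 members, tested or not, the median of that mean per TPM was 67.3 on day 5 and 58.9 on day 7. For *Mog* the value was 1.42 and 2.14.

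To show what the windows before the start of such genes hold, the sequences before *Enpp6*, *Mag* and *Cnp* are given: a committed gene with the largest difference between the days, the myelin gene with the largest fall on day 7 and a myelin gene that was higher on both days. They are the bases from 250 to 51 before the RefSeq start, in GRCm38.p6, written 5′ to 3′ on the strand of the gene. Capitals mark the motif ACAAAG, a form of the core that Sox proteins such as Sox10 bind, on either strand.
Enpp6, chr8:46986637-46986836, plus strand: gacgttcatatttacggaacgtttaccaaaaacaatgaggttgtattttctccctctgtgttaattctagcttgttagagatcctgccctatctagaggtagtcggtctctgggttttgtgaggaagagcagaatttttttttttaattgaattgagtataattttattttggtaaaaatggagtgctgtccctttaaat
Mag, chr7:30914914-30915113, minus strand: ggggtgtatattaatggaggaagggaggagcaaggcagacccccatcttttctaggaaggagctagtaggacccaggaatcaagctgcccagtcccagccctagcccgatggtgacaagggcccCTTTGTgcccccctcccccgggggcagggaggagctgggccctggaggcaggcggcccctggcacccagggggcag
Cnp, chr11:100574689-100574888, plus strand: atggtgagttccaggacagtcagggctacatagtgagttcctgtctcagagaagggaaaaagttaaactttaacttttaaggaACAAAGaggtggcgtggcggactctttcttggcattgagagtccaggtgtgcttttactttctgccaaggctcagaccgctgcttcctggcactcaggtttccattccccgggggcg
Of the 36 members, 27 were matched to a window, and *Olig1*, *Sox10*, *C1ql1*, *Gpr17*, *Bcas1*, *Myrf*, *Mbp*, *Fa2h* and *Omg* were not. The motif stood in 6 of these 27 windows (22.2%), those of *Tnr*, *Mag*, *Mobp*, *Cnp*, *Opalin* and *Gjb1*, and in 13.6% of the windows of all 27025 genes. The window of *Enpp6* does not hold these letters, and other forms of the core were not searched for. Members with the motif included *Mag*, which was lower, and *Cnp*, which was higher.

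The control cultures were also compared between the days. From day 5 to day 7 with shRNA CON, 17 of 34 members were called higher, where 26.9% of all genes were, and 3 were called lower, where 21.6% were. Of the 6 committed genes, 5 were called higher: *Gpr17* by 5.19 ± 0.507, *Enpp6* by 4.06 ± 0.513, *Bcas1* by 3.71 ± 0.531, *Zfp488* by 2.96 ± 0.248 and *Myrf* by 2.32 ± 0.333 on the log2 scale. *Nkx6-2* was not called (0.17, adjusted p = 0.694). Of the myelin genes, *Mag* (2.77), *Mbp* (2.46), *Gjc3* (1.95), *Fa2h* (1.88), *Ugt8a* (1.13) and *Ermn* (0.45) were called higher, and *Cnp* (−0.24) and *Nfasc* (−0.29) lower. Of the precursor genes, *Sox10* (1.48), *Pdgfra* (1.20), *Nkx2-2* (0.95), *Tnr* (0.61), *Vcan* (0.58) and *Olig2* (0.37) were higher and *Cspg4* (−0.25) was lower. The call of *Cspg4* was lost in 13 of 24 alternatives. Of 16 other precursor genes, 5 were called higher and 8 lower, and of 23 other myelin genes tested, 8 were higher and 6 lower, with medians of −0.19 and 0.03. With TPM as deposited, 21 members were called higher and none lower, where 8573 of all 23789 genes were higher and 3434 lower, in place of 6394 and 5133. The 2 days stand in separate tables, and day and table cannot be told apart.

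With shRNA RUS, 15 members were called higher between the days, where 35.0% of all genes were, and 4 lower, where 25.8% were. With quantile normalization, 8 were called higher and 6 lower, where 29.4% and 28.8% of all genes were, and the calls of *Sox10*, *Cspg4*, *Enpp6* and *Nfasc* were among those lost. Of the committed genes, *Bcas1* (1.93) and *Enpp6* (1.23) were called higher, while *Myrf* (0.79, adjusted p = 0.0523) and *Nkx6-2* (−0.57, adjusted p = 0.129) were not called. With shRNA RUS, *Gpr17*, *Zfp488*, *Mobp* and *Gjc3* were under 0.1 TPM on day 5 and passed the minimum through the other groups, so that nothing is read from their calls (3.37 for *Gpr17*, 2.52 for *Zfp488* and 1.02 for *Gjc3*). Among the 30 members without these 4, 12 were called higher and 4 lower. The call of *Enpp6* was lost in 18 of 24 alternatives, and its value was 0.65 without replicate 1 of shRNA RUS on day 7. Of the myelin genes, *Mog* (1.54), *Ugt8a* (0.93), *Ermn* (0.43) and *Nfasc* (0.21) were called higher as well. *Mbp* (0.39), *Mag* (0.98) and *Fa2h* (−0.06) were not called. *Gal3st1* (−1.53) and *Mal* (−1.58) fell, as did *Cnp* (−0.69) and *Matn4* (−0.55). Without replicate 4 of shRNA RUS on day 5, 7 members were called lower, and the calls of *Olig2* (0.17) and *Sox10* (0.79) were lost.

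**Figure D3:**
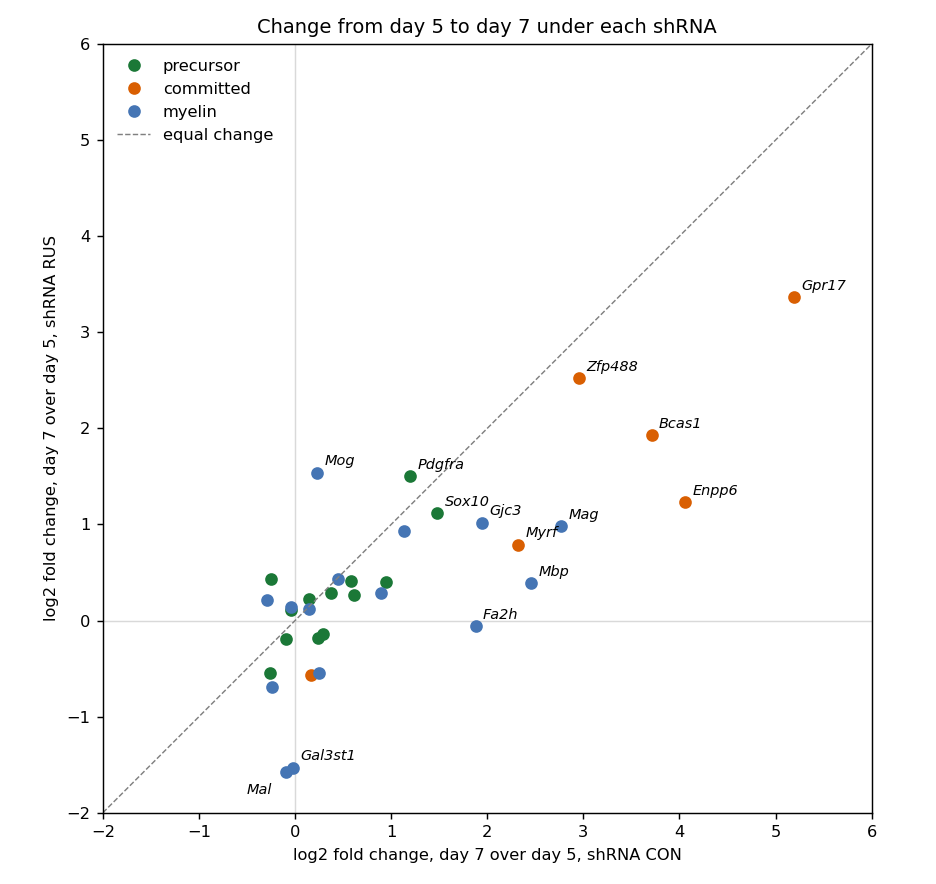
Log2 fold change from day 5 to day 7 with shRNA CON (x axis) and with shRNA RUS (y axis) for the 34 members tested, coloured by stage. The dashed line marks equal change. *Enpp6* lies at 4.06 and 1.23 and *Mbp* at 2.46 and 0.39, both far under the line, while *Pdgfra* lies at 1.20 and 1.50.

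The difference between these changes was tested directly, in 1 fit over the 16 libraries. Of the members, 6 had a lower effect of shRNA RUS on day 7 than on day 5 by call, beside 14.6% of all genes, and 3 a higher one, beside 15.2%. The 6 were *Enpp6* (−2.83 ± 0.725, adjusted p = 0.00819), *Fa2h* (−1.93), *Myrf* (−1.54), *Gal3st1* (−1.51), *Mal* (−1.49) and *Cnp* (−0.45). The 3 were *Mog* (1.31), *Cspg4* (0.69) and *Nfasc* (0.50), of which *Mog* rests on the low counts given above. *Mbp* (−2.07, adjusted p = 0.0669), *Gpr17* (−1.82, adjusted p = 0.0683), *Mag* (−1.79, adjusted p = 0.0658) and *Bcas1* (−1.78, adjusted p = 0.0889) were not called. Without replicate 1 of shRNA RUS on day 7, 12 members had a lower effect by call, and with a pseudocount of 1, 11 had. Among the 30 members without the 4 that were under the minimum with shRNA RUS on day 5 (*Gpr17*, *Zfp488*, *Mobp* and *Gjc3*), the count was 6 as reported, 10 without replicate 1 and 8 with a pseudocount of 1. Those called without replicate 1 included *Mbp* (−2.76), *Bcas1* (−2.31) and *Mag* (−2.21), and *Bcas1* and *Mag* were also called with a pseudocount of 1.

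That library stood out among the 4 with shRNA RUS on day 7. Replicate 1 was the highest of the 4 in 5 of 6 committed and 11 of 15 myelin genes, but in 24.5% of all genes tested and in 5 of 13 precursor genes. Replicate 3 was the lowest in 5 of 6 committed and 11 of 15 myelin genes and in 20.9% of all genes. In the control group, replicate 3 was the lowest in 5 of 6 committed and 9 of 15 myelin genes. The committed genes summed to 24.2, 7.76, 5.13 and 12.2 TPM in the 4 shRNA RUS libraries and to 48.6, 57.0, 38.7 and 58.5 TPM in the 4 controls. The differences of day 7 were larger for the following genes without replicate 1 of shRNA RUS, with *Gpr17* at −3.17, *Bcas1* at −3.16, *Enpp6* at −3.16 and *Myrf* at −2.35. The 6 committed and 9 myelin genes were then all called lower, together with 9 of 13 precursor genes, as *Cspg4* and *C1ql1* lost their calls.

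**Figure D4:**
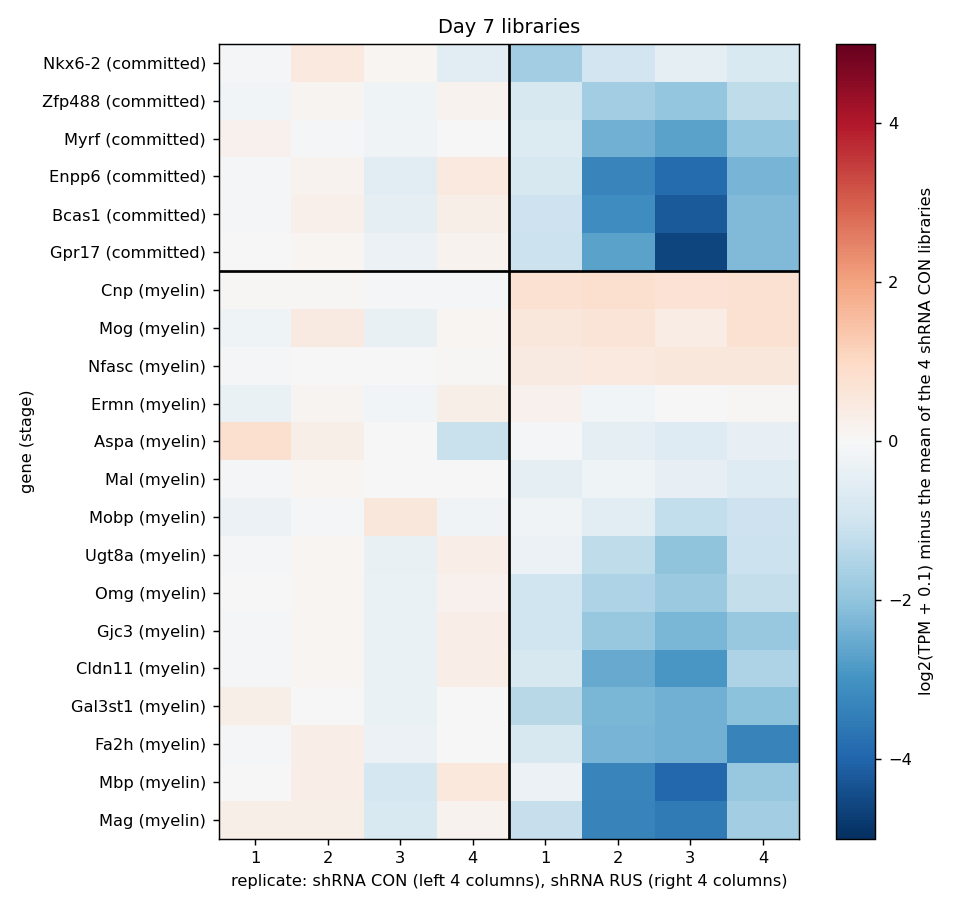
log2(TPM + 0.1) minus the mean of the 4 shRNA CON libraries (colour) in the 8 libraries of day 7 (columns) for the 21 committed and myelin genes tested (rows). Among the shRNA RUS libraries, replicate 1 is the palest and replicate 3 the darkest blue for most committed genes, with *Gpr17* at 5.85 and 0.41 TPM.

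Further genes of the lineage and markers of other cell types are to be read beside the 25.8% of all genes called lower and 23.4% called higher on day 7. Of 16 other precursor genes, 5 were called lower and 6 higher on day 7, with a median of −0.07, while on day 5, 10 of 15 tested were lower and 2 higher, with a median of −0.37, beside 17.9% and 14.8% of all genes on that day. Among them *Megf11* fell by 1.52 on the log2 scale and *Cspg5*, a proteoglycan also known from astrocytes and neurons, was higher (1.38). Of 23 other myelin genes tested, 13 were lower and 2 higher, with a median of −0.27, and on day 5, 8 of 25 were lower and 3 higher. *Anln*, the anillin of dividing cells that also stabilises myelin, fell by 1.47 on day 7 and *Tspan2* by 1.05, and *Gpr37* (0.64) and *Cntn2* (0.52) were higher. Of 15 regulators of oligodendrocyte differentiation tested, 5 were lower and 5 higher on day 7, and 5 were lower and 2 higher on day 5. *Shh*, the morphogen that induces Olig2 in the ventral neural tube, fell by 1.92 and *Bmp4* by 1.31, while *Nfia* (0.98) and *Sox9* (0.58) were higher.

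Markers of other cell types moved as well. All 8 microglia markers were called lower on day 7 (median −0.86), with summed levels of 274 to 294 TPM in the controls and 130 to 163 TPM with shRNA RUS. On day 5 their sums were 96.5 to 105 and 86.2 to 103 TPM, while 2 of 8 were lower and 1 (*Trem2*, 0.73) was higher. On that day the sum of the astrocyte markers was higher with shRNA RUS, without overlap (3681 to 4040 and 4596 to 5013 TPM). Of these 8, 3 were called higher and 2 lower (median 0.02). The sum for NSC and radial glia was also higher without overlap (12758 to 14029 and 16499 to 17981 TPM). Of these 8, 3 were higher and 2 lower (median −0.06). The sum of the endothelial markers was lower without overlap (5.96 to 6.79 and 3.08 to 4.51 TPM). Of the 4 tested, 1 (*Kdr*) was called, lower (median 0.13). Of all genes on day 5, 14.8% were higher and 17.9% lower (median −0.06). The sums of the neuron, fibroblast and mural, and Schwann cell markers overlapped on day 5. Of 8 astrocyte markers, 4 were higher and 1 lower on day 7, with sums of 2302 to 2360 TPM and 3036 to 3243 TPM. Of 8 neuron markers, 4 were higher and 2 lower on day 7, with sums of 773 to 853 and 743 to 867 TPM. Of 6 fibroblast and mural markers tested, 3 were higher on day 7, with sums of 16.7 to 19.2 and 35.0 to 39.9 TPM. Of 8 markers of NSC and radial glia, 4 were lower and 2 higher, with sums of 7349 to 7786 and 7763 to 8500 TPM. The part of these cell types in the results of the lineage genes was not tested. Of the remaining lists, 7 Schwann cell markers were tested and 2 (*Egr2* and *Prx*) were higher on day 7, and the summed level of the list was 4.9 to 5.68 TPM with shRNA CON and 6.37 to 9.41 TPM with shRNA RUS. Of 4 endothelial markers tested, 1 (*Kdr*) was lower on day 7, with summed levels of 7.34 to 7.86 TPM and 3.57 to 4.53 TPM. The Schwann cell gene *Pmp2* stayed at or under 0.25 TPM in all libraries and *Foxd3* at or under 0.02 TPM, and the endothelial genes *Cldn5* and *Cdh5* at or under 0.06 and 0.16 TPM.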

How the data were processed

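NSC cultures with shRNA CON or shRNA RUS were profiled on day 5 and day 7, 4 libraries each. From polyA RNA, the authors made libraries for a NextSeq instrument, aligned reads with STAR to mm10 with GRCm38.99 transcripts and quantified them with RSEM. They deposited 1 table per day with TPM, which sum to 1000000 per library and keep no depth, so that no counting interval is given. The deposited base mean, a signal given as the authors' mean of normalized counts, was used only to show how many reads stand behind *Mog*. The authors' own DESeq2 columns (fold changes and p-values) were not used. The labels and the paper's methods differ in the bFGF and GlutaMAX concentrations of the media.

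With R 4.3.3 and limma 3.58.1, TPM were scaled by a factor for each library (the median ratio over genes with at least 1 TPM throughout, 0.92 to 1.11 on day 5, 0.991 to 1.01 on day 7). Genes whose mean reached 0.1 TPM were tested on log2(scaled TPM + 0.1) with lmFit and eBayes (trend, two-sided, Benjamini-Hochberg, threshold 0.05). The effect of shRNA RUS was fitted within each day, and contrasts over both days in 1 fit of 16 libraries, over the 55365 rows with the same symbol in both tables. A pseudocount understates fold changes of low genes. The test was checked on simulated data. Python 3.11.15, pandas 2.3.3 and matplotlib 3.10.9 served for summaries and plots.

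The members and lists were chosen with earlier results of these data known. Values in every library are given for *Olig2*, *Sox10*, *Pdgfra* and *Mbp* and, per stage, for up to 5 members with the largest called changes at a mean of at least 1 TPM, 16 members in all; *Cnp*, *Mal* and *Nfasc* were added after their values were seen. From each further list, genes named are among the 2 largest called changes in a direction at a mean of at least 1 TPM, except those named for their low level. Positions and overlaps came from GENCODE vM21 (GRCm38) by symbol, which matched all 36 members. This release differs from that of the authors, and 13 members share exon bases with another annotated gene. Promoter windows came from RefSeq (GRCm38.p6). Alternatives were other pseudocounts, filters and scalings, eBayes without a trend, all libraries in 1 fit, the replicate number as a block and leaving out each library.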

Additional observations from a re-analysis of the deposited data

Results flagged for a closer look

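Libraries that stood apart within their group were looked for in 76 groups of 4 libraries, by the gap of the highest or lowest value to its neighbour relative to the range of the group. The values compared were TPM as deposited. Chance alone gives about 1 in 20 such groups, and 8 were found. With shRNA RUS on day 5, replicate 4 was low for *Olig2* (28.6 TPM) and high for *Tnr* (8.8 TPM), replicate 3 was high for *Mbp* (4.83 TPM), *Bcas1* (1.86 TPM) and *Mag* (0.29 TPM), and replicate 2 was high for *Enpp6* (0.5 TPM). With shRNA RUS on day 7, replicate 4 was high for *Olig2* (58.5 TPM). With shRNA CON on day 5, replicate 1 was high for *Mbp* (4.05 TPM), where the other 3 lay between 3.71 and 3.74 TPM. That library had the largest scaling factor of day 5 (1.113), and after scaling it was not the highest for *Mbp*. *Mbp*, *Bcas1* and *Mag* were thus high in the same shRNA RUS library of day 5, replicate 3.

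The effect of shRNA RUS differed between the days by limma's test of the difference for 9 members (log2 fold change of day 7 minus that of day 5), 6 of them lower and 3 higher, where 14.6% and 15.2% of all genes were. The difference was −2.83 for *Enpp6*, −1.93 for *Fa2h*, −1.54 for *Myrf*, −1.51 for *Gal3st1*, −1.49 for *Mal* and −0.45 for *Cnp*. It was 1.31 for *Mog*, 0.69 for *Cspg4* and 0.50 for *Nfasc*.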

How the results depend on the processing

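The numbers of members called were within 1.5 times of those reported in all alternatives with these exceptions. With TPM as deposited, 17 members in place of 11 were called lower on day 5, and 0 in place of 3 were lower on day 7 than on day 5 with shRNA CON (14.4% in place of 21.6% of all genes); the median of all genes was then −0.205 on day 5 and 0.205 between the days. Of all genes, 14.8% were called higher and 17.9% lower on day 5, against 7.83% and 26.7% with TPM as deposited. With quantile normalization, 8 in place of 15 members rose between the days with shRNA RUS, where 29.4% in place of 35.0% of all genes did. With a pseudocount of 1, 11 in place of 6 members had a lower effect on day 7 than on day 5. The causes were not tested. Leaving out 1 library at a time gave 9 to 13 members lower and 2 to 3 higher on day 5, and 23 to 26 lower and 2 to 3 higher on day 7. Between the days it gave 16 to 18 higher and 2 to 3 lower with shRNA CON, 11 to 17 higher and 3 to 7 lower with shRNA RUS, and 6 to 12 lower and 3 to 3 higher for the difference of the effects. Of 3565 values of the 34 members tested, over the 5 comparisons and all alternatives, 108 lost and 89 gained a call, and 0 called values changed sign. The replicate number as a block (replicate block) gave 9 members lower on day 5 and 25 on day 7. The numbers did not pair the libraries: libraries of the same number correlated with −0.252 to −0.016 on day 5 and 0.016 to 0.101 on day 7 in their deviations from the group means. Members under about 0.5 TPM, such as *Zfp488*, *Gpr17*, *Enpp6* and *Mag* on day 5, rest on few reads.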
